A study of Mus musculus with 13 samples.

Results

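The 10 genes described here encode proteins that neutrophils and their precursors store for use against microbes. *Mpo*, *Elane*, *Prtn3* and *Ctsg* belong to the primary granules and *Ltf*, *Camp* and *Ngp* to the secondary granules, while *S100a8* and *S100a9* encode cytosolic proteins. *Mmp8* was listed here apart from these, as a late granule gene. They were chosen by name as markers of successive maturation stages, with earlier results of these data known, and they are 10 of the 53465 genes in a table of liver counts that gives each gene a count in every library. The liver RNA came from 6 WT and 7 *Nod2*-/- mice, all male and on the BALB/c background, with 1 library per mouse. *Nod2*-/- mice lack a cytosolic receptor for fragments of bacterial cell walls, and which part of the gene is deleted is not given in the sources used here. Mice of both genotypes had the carcinogen DMBA applied to the skin as pups and received a diet high in fat (HFD) for 30 weeks according to the labels, which also give 30 weeks as the age and cancer as the disease state, while the methods of the study give a slightly longer time on the diet. The genotypes were bred separately and were not littermates, so genotype and line of breeding cannot be told apart. Libraries were made from polyadenylated RNA with a kit that keeps the strand, and the methods of the study say that tumors were taken apart from the liver where this could be done, but not whether the pieces used for RNA were free of tumor. The gene counts summed to 14886273 to 20579984 per WT library and to 13824780 to 19391431 per *Nod2*-/- library.

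Neutrophils mature in the bone marrow, and they transcribe their granule genes in turn. Promyelocytes transcribe the primary granule genes, later precursors switch to the secondary granule genes under the transcription factor C/EBP epsilon, and the last granules fill shortly before the cell leaves the marrow, whereas *S100a8* and *S100a9* transcripts remain abundant in the mature cell. The fetal liver forms blood cells, and the adult liver holds neutrophils in its sinusoids, so a liver sample can contain transcripts of more than 1 stage.

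*Nod2* itself, the targeted gene, had very few counts, namely 4, 1, 3, 2, 0 and 3 across the WT libraries in the order of their replicate numbers, and 2, 2, 6, 1, 5, 1 and 4 across the *Nod2*-/- libraries. These counts were too low to check the genotype labels. The tissue label was checked with *Alb*, the serum albumin gene of hepatocytes, which had 1142240 ± 197864 normalized counts (SD, n = 6) in WT and 1323090 ± 400377 (SD, n = 7) in *Nod2*-/- libraries. Normalized here means that each library was scaled to the mean of the effective library sizes.

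*Nod2*-/- replicate 7 stood apart from the other libraries. It had the highest count of 9 of the 10 genes among all 13 libraries, and for *Prtn3* it came second to *Nod2*-/- replicate 4. The edgeR and main permutation results of the 10 genes are therefore given with and without it, whereas DESeq2 and voom were not fitted without it. In bulk liver RNA, fewer cells of a type and less RNA per cell cannot be told apart, and the same holds for more cells and more RNA per cell.

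Among the primary granule genes, *Mpo* encodes myeloperoxidase, which makes hypochlorous acid from hydrogen peroxide. It had 0, 0, 4, 2, 0 and 1 counts across WT replicates 1 to 6, and 2, 4, 4, 5, 26, 12 and 446 across *Nod2*-/- replicates 1 to 7. Replicates 2 to 7 of *Nod2*-/- lay above every WT library after normalization, and replicate 1 lay among them. The median normalized count was 0.409 in WT and 4.99 in *Nod2*-/- mice, and the ratio of means was 63.2, and without replicate 7 the *Nod2*-/- mean was 8.61 ± 8.07 and the ratio 7.80. *Elane*, the gene of neutrophil elastase, a serine protease, had 2, 0, 3, 3, 1 and 6 counts in the WT and 2, 2, 7, 5, 22, 7 and 190 counts in the *Nod2*-/- libraries. Its groups overlapped, since *Nod2*-/- replicates 1 and 2 lay within the WT range and 5 *Nod2*-/- libraries lay above it. The ratio of means was 14 with replicate 7 and 3.10 without it.

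*Ctsg*, which encodes cathepsin G, another serine protease, had 0 counts in all 6 WT libraries and 0, 0, 1, 2, 7, 7 and 194 counts in the *Nod2*-/- libraries. *Nod2*-/- replicates 1 and 2 were at 0 like the WT libraries, and 5 *Nod2*-/- libraries lay above them. A floor of 3 counts per library corresponds to 3.31 normalized counts in the WT library with the smallest effective size, against which the *Nod2*-/- mean of 29.6 was at least 8.93-fold higher. Without replicate 7 the *Nod2*-/- mean was 2.86, below that floor, and no ratio is given.

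*Prtn3*, which encodes proteinase 3, had another distribution. Its counts were 2, 2, 8, 11, 4 and 39 across WT replicates 1 to 6, and 16, 13, 90, 1226, 75, 81 and 859 in *Nod2*-/- replicates 1 to 7. *Nod2*-/- replicates 1 and 2 lay within the WT range, replicates 3, 5 and 6 lay above it, and replicates 4 and 7 lay far above those. Replicate 4 alone held 52.1% of the normalized *Prtn3* counts of the 7 *Nod2*-/- libraries, with 1223 normalized counts against 842 in replicate 7. The mean normalized count was 9.98 ± 11.4 (SD, n = 6) in WT and 335 ± 490 (SD, n = 7) in *Nod2*-/- mice, a ratio of 33.6. The ratio was 25.1 without replicate 7, 18.7 without replicate 4 and 5.62 without both. In replicate 4 the other primary granule genes were much lower than *Prtn3*, with 5 counts for *Mpo*, 5 for *Elane* and 2 for *Ctsg*, though after normalization each lay just above its highest WT library. *Prtn3* overlaps *Plppr3*, a gene on the opposite strand with 0 to 6 counts in the WT and 2 to 20 in the *Nod2*-/- libraries, and 8 counts in replicate 4. Counts from such pairs are uncertain where strand is not used in counting, and this is not given in the sources used here. *Mpo* overlaps the antisense gene *Gm11505*, which had 0 counts in all 13 libraries.

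The secondary granule genes summed to 2596 normalized counts in *Nod2*-/- replicate 7 and, next below it, to 129 in replicate 5. The highest WT library had 16.3. *Ltf*, the gene of the iron-binding protein lactoferrin, had 1, 0, 9, 1, 1 and 3 counts across WT replicates 1 to 6, and 0, 2, 5, 10, 43, 9 and 943 across *Nod2*-/- replicates 1 to 7. WT replicate 3 was the highest WT library, and *Nod2*-/- replicates 1 to 3 lay below it, so 4 *Nod2*-/- libraries exceeded the WT range. The ratio of mean normalized counts was 61.4, and it was 4.71 without replicate 7. *Camp*, which encodes the antimicrobial peptide cathelicidin, had 0, 0, 3, 0, 2 and 3 counts in the WT and 2, 2, 6, 7, 39, 12 and 409 counts in the *Nod2*-/- libraries. Here 5 *Nod2*-/- libraries lay above every WT library, and the ratio was 54.1, or 8.84 without replicate 7. *Ngp*, the neutrophilic granule protein gene, had 1, 1, 6, 2, 0 and 6 counts in the WT and 5, 4, 10, 15, 65, 15 and 1297 counts in the *Nod2*-/- libraries. Again 5 *Nod2*-/- libraries lay above the WT range, with replicate 5 second to replicate 7. Its ratio was 80.7, and 7.42 without replicate 7.

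*Mmp8*, listed here as a late granule gene, encodes neutrophil collagenase. It had 1, 0, 4, 2, 2 and 3 counts across WT replicates 1 to 6, and 2, 1, 5, 7, 11, 2 and 204 across *Nod2*-/- replicates 1 to 7. *Nod2*-/- replicates 1, 2 and 6 lay within the WT range. The ratio of means was 16.9 with replicate 7 and 2.36 without it. The WT means of *Mpo*, *Elane*, *Ltf*, *Camp*, *Ngp* and *Mmp8* lay below the floor of 3.31 normalized counts, so the ratios of these genes rest on very few WT counts.

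*S100a8* and *S100a9* encode the subunits of the calcium-binding protein calprotectin, which sequesters zinc and manganese, and *S100a9* had more counts than any granule gene in each WT library. *S100a8* had 13, 15, 18, 21, 9 and 30 counts across WT replicates 1 to 6, and 15, 38, 53, 75, 164, 81 and 4873 across *Nod2*-/- replicates 1 to 7. *S100a9* had 33, 24, 33, 49, 38 and 73 counts in the WT and 36, 90, 149, 162, 336, 171 and 7529 counts in the *Nod2*-/- libraries. For both genes, *Nod2*-/- replicate 1 lay within the WT range and the other 6 *Nod2*-/- libraries lay above it. The ratio of mean normalized counts was 43.0 for *S100a8* and 29.0 for *S100a9*, and without replicate 7 these were 4.05 and 3.80.

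**Figure D1:**
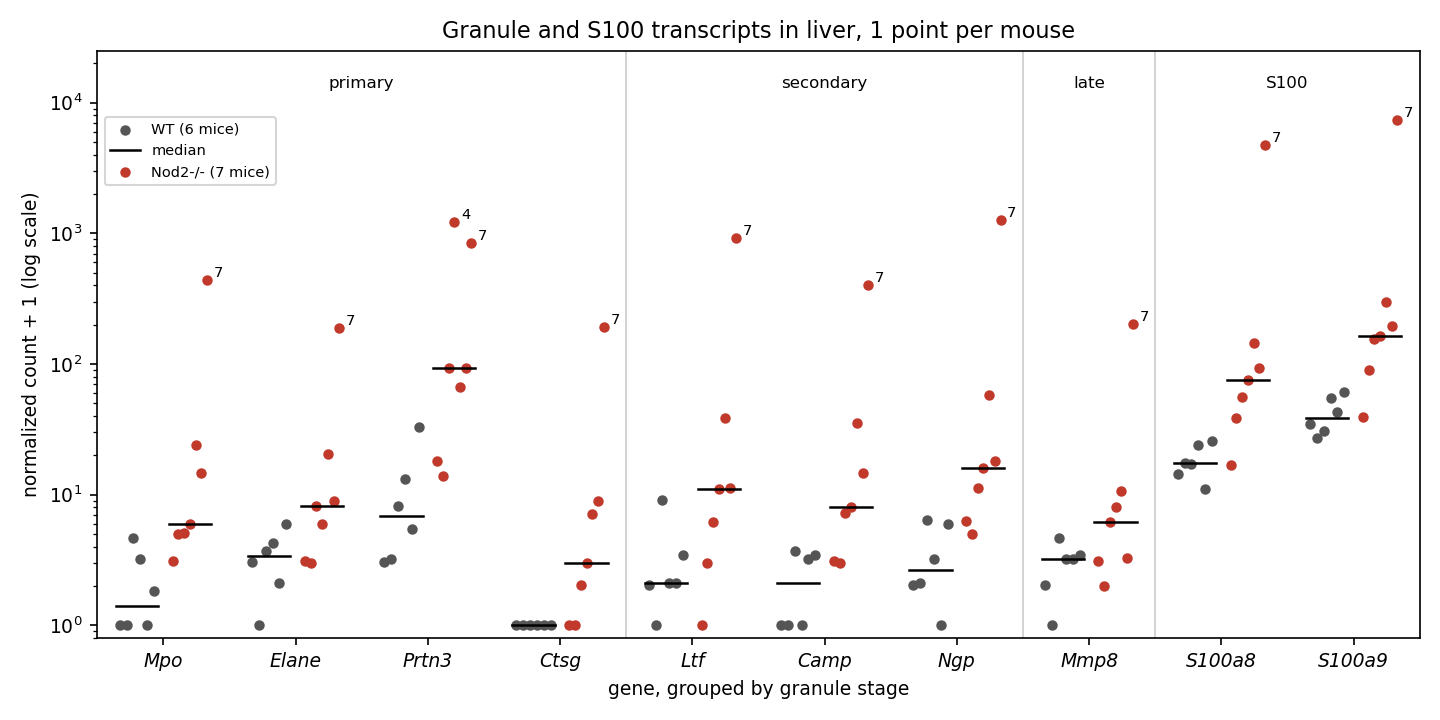
Normalized counts plus 1 of the 10 genes on a log axis, 1 point per mouse, for 6 WT (grey) and 7 *Nod2*-/- (red) libraries, with bars at the group medians and genes ordered by granule stage. The points numbered 7 are *Nod2*-/- replicate 7, highest for every gene except *Prtn3*, for which replicate 4 is higher.

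The distance between replicate 7 and the library ranked next below it differed among the genes. It was 33.1-fold for *S100a8*, 25.0-fold for *S100a9*, 24.4-fold for *Ltf*, 23.9-fold for *Ctsg*, 22.2-fold for *Ngp*, 20.7-fold for *Mmp8*, 19.1-fold for *Mpo*, 11.7-fold for *Camp* and 9.63-fold for *Elane*. For *Ctsg* the next library was *Nod2*-/- replicate 6, and for the other genes named it was *Nod2*-/- replicate 5. The genes did not fall by stage in this order, since *Mpo* and *Elane* are both of primary and *Ltf* and *Camp* both of secondary granules. Replicate 7 held between 81.0% of the normalized *Nod2*-/- counts for *Elane* and 93.4% for *Ltf* among these 9 genes.

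For 0 of the 10 genes did every *Nod2*-/- library lie above every WT library, with or without replicate 7, whereas 0.583% of 19567 genes with at least 10 counts did so over all libraries and 0.654% without replicate 7. A two-sided exact permutation test of log2(normalized count + 1) over all 1716 splits of the 13 mice gave p under 0.05 for 8 of the 10 genes, in a background of 10.5% of the 19567 genes higher in *Nod2*-/- mice at that p. The smallest p these splits allow is 0.000583. The exact permutation p was 0.00641 for *Mpo*, *Prtn3*, *Ngp* and *S100a9*, with mean log2 differences of 2.94, 3.81, 3.19 and 2.54. It was 0.00816 for *S100a8* with a difference of 2.63, and 0.00932 for *Camp* with 2.92. *Elane* and *Ctsg* had an exact permutation p of 0.0373 each, with differences of 1.87 and 2.31, and with each of the 13 mice left out in turn they lost p under 0.05 in 9 and 11 cases. *Ltf* and *Mmp8* did not pass, with an exact permutation p of 0.0874 and 0.0839 and differences of 2.40 and 1.61, and they came under 0.05 in 1 and 2 of the 13 cases. The other 6 genes kept p under 0.05 in all 13. After Benjamini-Hochberg adjustment of the exact permutation p over the 19567 genes, the 10 genes lay between 0.149 and 0.332. No gene of the table passed 0.05, the lowest adjusted value being 0.0950, while edgeR placed 88 genes higher and 69 lower, DESeq2 630 and 582, and voom 519 and 324 past 5% FDR.

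Without replicate 7, the exact permutation test over 924 splits, with a smallest p of 0.00216, gave p under 0.05 for 6 of the 10 genes, against 8.23% of all genes tested. *Mpo* kept a difference of 2.1 (exact permutation p = 0.00649), *S100a9* of 1.71 (exact p = 0.00866), and *Prtn3*, *Ngp* and *S100a8* of 3.31, 2.25 and 1.72 (exact p = 0.0108 each). *Camp* had a difference of 2.12 with an exact permutation p of 0.0216. The exact permutation p was 0.0584 for *Elane*, 0.0606 for *Ctsg*, 0.139 for *Ltf* and 0.13 for *Mmp8*, with differences of 1.18, 1.43, 1.38 and 0.83. On normalized counts without a logarithm, 0 of the 10 genes had an exact permutation p under 0.05 with all libraries, the range being 0.142 to 0.487, against 9.37% of the 19567 genes higher at that p.

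edgeR's expression filter kept 13545 genes, among them *Prtn3*, *S100a8* and *S100a9*, while the other 7 had too few counts in most libraries. By edgeR's quasi-likelihood test, two-sided and adjusted over all genes kept, 0 of these 3 passed 5% FDR, against 0.65% of all genes tested that were higher in *Nod2*-/- mice. At an unadjusted p under 0.05 all 3 were higher, in a background of 12.9%. A gene can pass the filter through its *Nod2*-/- libraries alone, so these 3 do not stand for the 10. The log2 fold change was 4.97 for *Prtn3* (SE 1.17, edgeR adjusted p = 0.0549), 5.40 for *S100a8* (SE 1.44, edgeR adjusted p = 0.0673) and 4.85 for *S100a9* (SE 1.26, edgeR adjusted p = 0.0656), with 5, 6 and 6 of the 7 *Nod2*-/- libraries above every WT library. SE for edgeR is the size of the log2 fold change divided by the square root of the test's F statistic. Without replicate 7 the log2 fold changes were 4.56, 2.01 and 1.92, with edgeR adjusted p of 0.0995, 0.0632 and 0.0536. Then 0 of 3 passed 5% FDR against 0.209% of the genes, and 3 of 3 had an unadjusted p under 0.05 against 10%. Without replicate 4 of *Nod2*-/- the log2 fold change of *Prtn3* was 4.15 (edgeR adjusted p = 0.0989). *Prtn3* passed 5% FDR with any of 4 other mice left out, namely WT replicate 3 and *Nod2*-/- replicates 1, 2 and 3 (edgeR adjusted p = 0.0389, 0.0387, 0.0459 and 0.0498). In these fits 697 of 13611, 111 of 13474, 74 of 13444 and 116 of 13440 genes were higher past 5% FDR, against 88 of 13545 with all mice.

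In edgeR's fit without a filter, over 27602 genes, *Prtn3* alone of the 10 passed 5% FDR (log2 fold change 4.95, edgeR adjusted p = 0.0392), against 0.283% of genes. An unadjusted p under 0.05 was reached by 10 of 10, against 8.59%. With single mice left out, this fit passed between 0 and 6 of the 10 genes, and the share of all genes passing moved too. It passed 6 without WT replicate 3 (2.23% of genes), *Nod2*-/- replicate 1 (0.46%) or *Nod2*-/- replicate 3 (0.504%), and 5 without *Nod2*-/- replicate 2 (0.362%). It passed 2 without *Nod2*-/- replicate 5 (0.373%), 6 (0.361%) or 7 (0.163%), 1 without WT replicate 6 (0.391%), and 0 without any of the other mice (0.091% to 0.143%). The log2 fold changes there were 5.75 for *Mpo*, 3.66 for *Elane*, 5.75 for *Ltf*, 5.52 for *Camp*, 6.14 for *Ngp* and 3.94 for *Mmp8*. Without replicate 7 that fit gave 2.78, 1.54, 2.12, 2.95, 2.76 and 1.17 for the same genes. It then placed *S100a8* and *S100a9* past 5% FDR (edgeR adjusted p = 0.0383 and 0.0250), 2 of the 10 genes against 0.163% of genes, and 9 of 10, all but *Mmp8*, had an unadjusted p under 0.05 against 7% of genes, while *Prtn3* had an edgeR adjusted p of 0.0645.

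DESeq2 gave an adjusted p to 4 of the 10 genes, and all 4 passed 5% FDR, against 4.43% of genes. A gene can get an adjusted p through its *Nod2*-/- libraries alone, so these 4 do not stand for the 10. Its log2 fold changes were 5.05 for *Prtn3* (adjusted p = 0.000222), 2.70 for *Ngp* (adjusted p = 0.00894), 1.90 for *S100a8* (adjusted p = 0.000657) and 1.82 for *S100a9* (adjusted p = 0.000180). DESeq2 replaced the replicate 7 count of 9 of the 10 genes, all except *Prtn3*, by a lower value before the fit, for example 4873 by 40 for *S100a8* and 1297 by 7 for *Ngp*. Without this replacement DESeq2 gave an adjusted p to *Prtn3* alone, which passed 5% FDR (adjusted p = 0.000224), against 4.41% of genes. limma's voomWithQualityWeights placed 0 of the 3 genes kept by the filter past 5% FDR, against 3.83% of genes, and 1 of them, *Prtn3*, at an unadjusted p under 0.05, against 14.6%. The study chose 8 of the 10 genes, all but *Mpo* and *Ctsg*, for its table of immune genes on these same mice, so their direction is not independent evidence. Its heatmap of immune genes holds those past the study's fold change threshold and 5% FDR by DESeq2. *Elane*, *Ltf*, *Camp* and *Mmp8* are in its table but had no adjusted p from DESeq2 here.

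Levels of different genes were compared as counts per kilobase of exon, divided by the library total in units of 1e+06 counts. In WT libraries the order was *S100a9* (4.67 ± 1.61, SD, n = 6), *S100a8* (1.48 ± 0.503), *Prtn3* (0.346 ± 0.391), *Elane* (0.144 ± 0.105), *Ngp* (0.122 ± 0.115), *Camp* (0.0994 ± 0.110), *Mmp8* (0.0483 ± 0.0328), *Ltf* (0.0415 ± 0.0553) and *Mpo* (0.0202 ± 0.0278), with *Ctsg* at 0. *S100a9* lay above *S100a8*, and *S100a8* above *Prtn3*, by more than their SDs, and the other neighbours in this order did not differ beyond their spread. In each of the 13 libraries *S100a9* had a higher level per length than *S100a8*. In *Nod2*-/- libraries the medians followed the order *S100a9* (18.8), *S100a8* (6.09), *Prtn3* (3.38), *Ngp* (0.692), *Camp* (0.521), *Elane* (0.467), *Ltf* (0.163), *Mmp8* (0.135), *Ctsg* (0.109) and *Mpo* (0.0823). Every gene had an SD larger than its mean in the *Nod2*-/- group, so the spread between mice separated no neighbours there, although within each *Nod2*-/- library *S100a9* exceeded *S100a8*. In replicate 7 the level per length was 849 for *S100a9*, 413 for *S100a8*, 62.4 for *Ngp*, 31.7 for *Camp* and 29.2 for *Prtn3*, and it was lowest for *Mpo* (7.66) and *Mmp8* (4.95). In replicate 4 *Prtn3* had 39.9 and exceeded *S100a9* with 17.5, the only library in which it did so.

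The balance of stages was described by the share of primary granule counts among the counts of the 8 granule genes, with exact Clopper-Pearson 95% intervals that cover counting error only. In the WT libraries these shares were 57.1%, 66.7%, 40.5%, 76.2%, 50% and 75.4% of 3 to 61 counts, so their intervals were wide, for example 18.4% to 90.1% in replicate 1. In *Nod2*-/- replicates 1 to 7 they were 69.0%, 67.9%, 79.7%, 96.9%, 45.1%, 73.8% and 37.2%. Replicate 4 had the highest share (interval 95.8% to 97.8%), replicate 7 the lowest (35.8% to 38.6%), and replicate 5, second to replicate 7 in the counts of 8 genes, had the next lowest (39.3% to 51.1%), whose interval did not reach that of replicate 7. With *Prtn3* left out, the shares of *Nod2*-/- replicates 1 to 7 were 30.8%, 40%, 31.6%, 23.5%, 25.8%, 40.6% and 22.5%. Replicate 4 (12.8% to 37.5%) then overlapped replicate 7 (21.2% to 23.9%), and the difference between them was not detectable at this depth. The share summed over the libraries was 63.3% in WT and 51.3% in *Nod2*-/- mice, or 85.3% in *Nod2*-/- mice without replicate 7. Replicate 4 gave 1277 of these last 1895 counts, and without replicates 4 and 7 the share was 61.2% (57.2% to 65.0%), which overlapped the WT interval (54.7% to 71.3%). With *Prtn3* left out, the summed share was 30.1% in WT and 23.2% in *Nod2*-/- mice, or 29.2% without replicate 7.

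**Figure D2:**
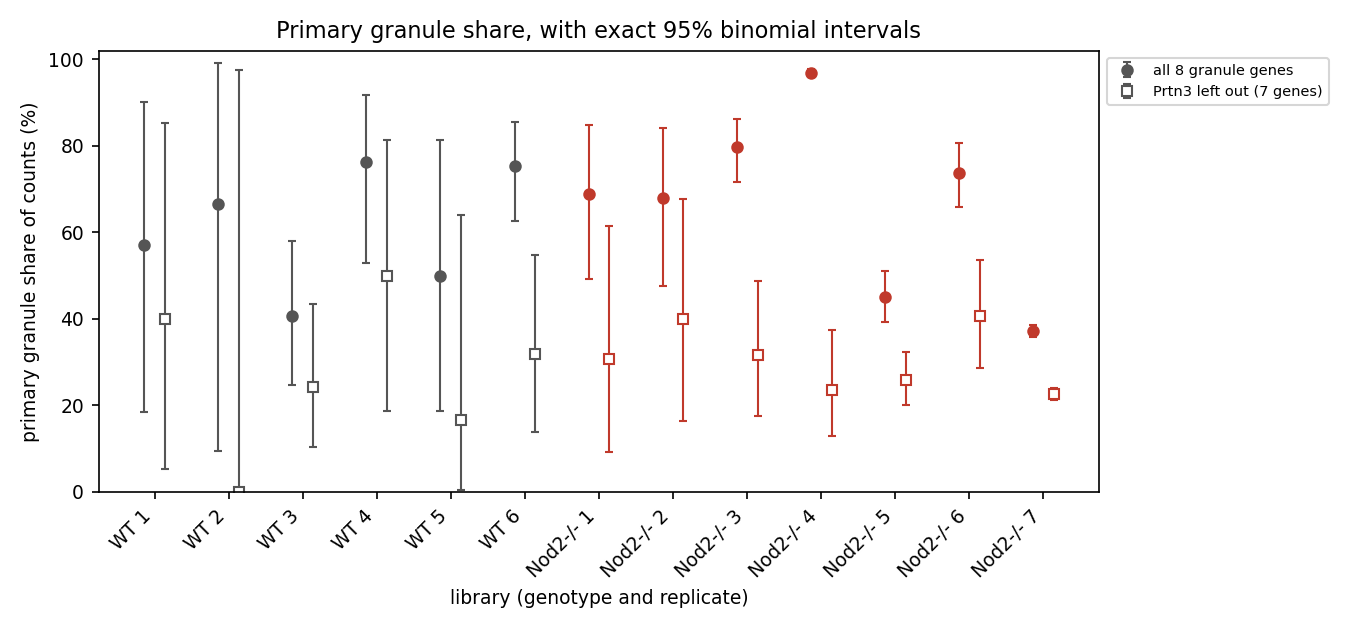
Primary granule share of counts in percent for each library, with exact 95% binomial intervals, for all 8 granule genes (filled) and without *Prtn3* (open), WT in grey and *Nod2*-/- in red. *Nod2*-/- replicate 4 lies at 96.9% with *Prtn3* and at 23.5% without it.

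Pairs of genes within a stage were compared in the same way. *Prtn3* made up 99.6% of the *Prtn3* and *Elane* counts in *Nod2*-/- replicate 4 (95% interval 99.1% to 99.9%), 81.9% in replicate 7 (79.4% to 84.2%), 77.3% in replicate 5 (67.7% to 85.2%) and 81.5% in the summed WT libraries (71.3% to 89.2%). Of the *Nod2*-/- libraries, only replicate 4 had an interval apart from that of the summed WT libraries, and WT replicate 2 was at 100% with 2 counts. *Ngp* made up 44.2% of the secondary granule counts in replicate 5 (36.0% to 52.6%) and 49.0% in replicate 7 (47.0% to 50.9%), intervals that overlap. *S100a9* made up 61.5% to 80.9% of the *S100a8* and *S100a9* counts in the WT libraries and 67.2% to 73.8% in *Nod2*-/- replicates 1 to 6, against 60.7% in replicate 7 (59.8% to 61.6%). These shares have the same 13 libraries and the same depth in common, and only counting error is covered.

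**Figure D3:**
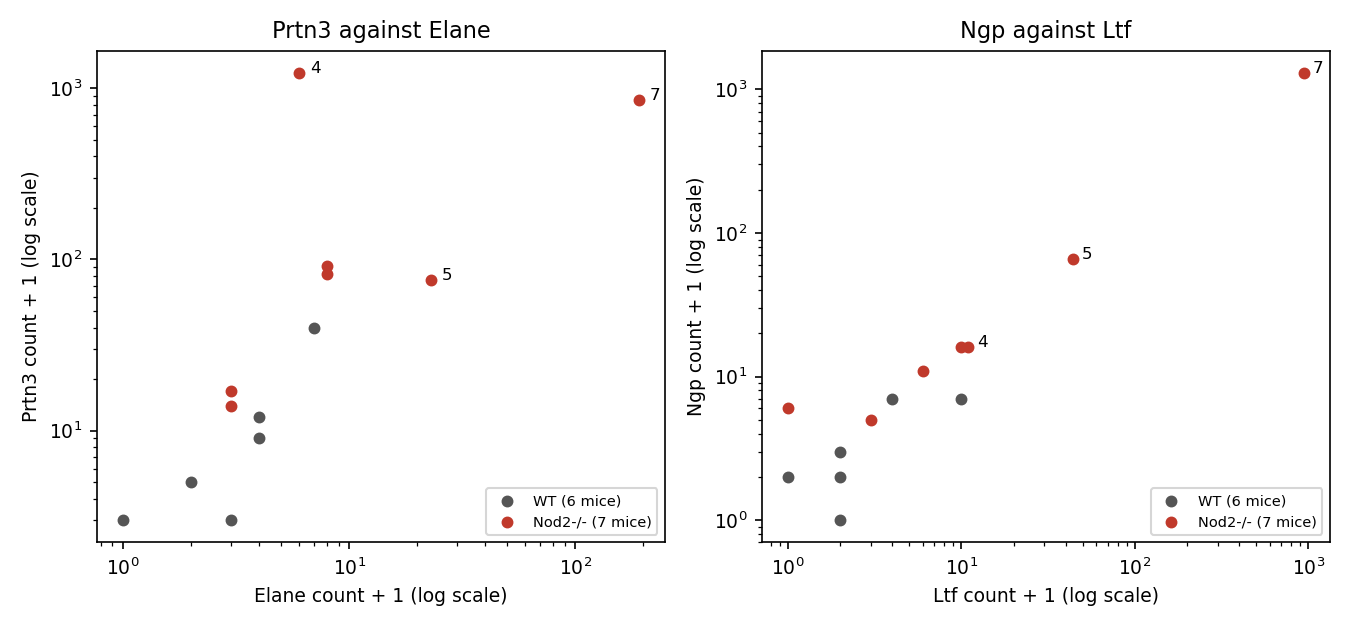
Counts plus 1 on log axes of *Prtn3* against *Elane* (left) and of *Ngp* against *Ltf* (right), 1 point per mouse, WT in grey and *Nod2*-/- in red. *Nod2*-/- replicate 4 has 1226 *Prtn3* counts beside 5 *Elane* counts, whereas for *Ngp* and *Ltf* it lies among the other libraries.

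The genes with the most similar pattern over the 13 libraries were sought by the Pearson correlation of log2(normalized count + 1) among the 15632 genes with at least 50 counts. All such values come from the same 13 mice, which share depth and genotype, and they are descriptions. For *Prtn3* they were *Itih3* (r = 0.973), *Ctsc* (r = 0.961), *Hpx* (r = 0.953), *Tmem176b* (r = 0.947) and *Ambp* (r = 0.947), while the other 9 genes described here had r from 0.732 for *Ctsg* to 0.796 for *S100a9*. *Itih3*, *Hpx* and *Ambp* encode plasma proteins that hepatocytes secrete, and *Ctsc* encodes cathepsin C, the protease that activates the granule serine proteases. *Itih3* was highest in *Nod2*-/- replicate 4 with 38274 normalized counts, followed by replicate 7 with 31668. Without replicate 4, over 12 libraries, the nearest genes to *Prtn3* were *Hpx* (r = 0.969), *Lgi4*, *Itih3*, *Elf3* and *Coro1a*, and *Elane* had r = 0.921. By Spearman's rho over all libraries the nearest gene was *Lgi4* (rho = 0.973), and *Elane* had rho = 0.835. Without replicates 4 and 7, over 11 libraries, *Prtn3* and *Elane* had r = 0.859.

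*Ltf* was most like *Laptm5* (r = 0.951), *Elane* (r = 0.951), *Camp* (r = 0.95), *Ly6g* (r = 0.948) and *Ncf4* (r = 0.947) over the 13 libraries. *Ly6g* encodes a surface protein of mouse neutrophils and *Ncf4* a subunit of the NADPH oxidase. Without replicate 7 the nearest were *Galnt15* (r = 0.917), *Laptm5*, *Fosl2*, *H2-K1* and *Fam189b*, none of them a granule gene, and *Camp* had r = 0.869. By Spearman's rho the nearest was *Serpina3g* over all 13 libraries (rho = 0.974) and *Galnt15* without replicate 7 (rho = 0.970). *S100a8* was most like *S100a9* (r = 0.990), *Ctsg* (r = 0.972), *Ngp* (r = 0.970), *Coro1a* (r = 0.964) and *Mpo* (r = 0.962). Without replicate 7, *S100a9* was still the nearest (r = 0.962), followed by *Pip4k2a*, *Ptpn18*, *Ngp* (r = 0.914) and *Cdk9*, while by Spearman's rho over all libraries *Cers5* came first (rho = 0.934) and *S100a9* had rho = 0.896.

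Other genes of granulocytes were counted from lists written from general knowledge, beside backgrounds of 0.65% of all genes higher past edgeR's 5% FDR, 12.9% higher at edgeR's unadjusted p under 0.05, 4.43% higher past 5% FDR by DESeq2 and 3.83% by voom. DESeq2 keeps genes by its own filter, so its numbers tested differ from those of edgeR and voom. Of 10 other primary granule or promyelocyte genes, 5 were tested, and 0 passed edgeR's 5% FDR, 3 had an unadjusted p under 0.05, and DESeq2 passed 1 of 6 and voom 2 of 5. The summed level of this list was 1025 to 2609 normalized counts in the WT (median 1786) and 1437 to 5300 in the *Nod2*-/- libraries (median 2512), with *Lyz2* the most abundant. *Ctsc* had 501 ± 158 normalized counts (SD, n = 6) in WT and 999 ± 447 (SD, n = 7) in *Nod2*-/- mice (log2 fold change 0.99, edgeR adjusted p = 0.0710, and 0.87 without replicate 7, edgeR adjusted p = 0.137), and its highest library was *Nod2*-/- replicate 4, as for *Prtn3*. Of 10 other secondary granule genes, 5 were tested, and 0 passed edgeR's 5% FDR, 4 had an unadjusted p under 0.05, and DESeq2 passed 2 of 7 and voom 0 of 5. This list summed to 50712 to 107714 (median 66506) in the WT and 53307 to 354946 (median 132489) in the *Nod2*-/- libraries, most of it from *Hp*, the haptoglobin gene that hepatocytes also express. *Lcn2*, which encodes the siderophore-binding lipocalin and is also expressed by hepatocytes, had 140, 160, 2337, 828, 747 and 622 counts in the WT and 978, 1401, 2532, 15809, 3848, 863 and 54924 counts in the *Nod2*-/- libraries. Like *Prtn3*, it was high in replicates 4 and 7, with a log2 fold change of 3.86 (edgeR adjusted p = 0.0734) and of 2.43 without replicate 7 (edgeR adjusted p = 0.153).

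Of 22 genes of late granules or mature neutrophils, 7 were tested, and 0 passed edgeR's 5% FDR, 4 had an unadjusted p under 0.05, and DESeq2 passed 1 of 8 and voom 0 of 7. Their sum was 5262 to 11095 normalized counts in the WT (median 9675) and 6365 to 18159 in the *Nod2*-/- libraries (median 9674), most of it from *Wfdc21*. *Wfdc21* alone had a median of 9528 in WT and 9447 in *Nod2*-/- libraries, so the medians of the sum describe that gene and not the list. In the permutation test, 7 of 21 of these genes had an exact permutation p under 0.05 (background 10.5%), and 5 of 21 without replicate 7 (background 8.23%), while edgeR without a filter had 15 of 22 at an unadjusted p under 0.05 (background 8.59%), and 7 of 20 without replicate 7 (background 7%). *Fpr2*, a receptor for formyl peptides, had the lowest unadjusted p of edgeR in the list (log2 fold change 2.11, edgeR adjusted p = 0.0965), and did not pass the filter without replicate 7. *Ly6g*, named above for its likeness to *Ltf*, had 0, 0, 2, 2, 1 and 2 counts in the WT and 0, 0, 1, 2, 11, 2 and 73 counts in the *Nod2*-/- libraries, and its exact permutation p was 0.309, and 0.567 without replicate 7. *Csf3r*, the receptor for G-CSF, had a log2 fold change of 1.98 (edgeR adjusted p = 0.123) and of 0.63 without replicate 7 (edgeR adjusted p = 0.268). Of 8 eosinophil genes 2 were tested, and edgeR passed 0, with 0 at an unadjusted p under 0.05, and DESeq2 and voom passed 0 of 2 each. Their sum was 30.8 to 76.7 in the WT (median 47.6) and 45.5 to 109 in the *Nod2*-/- libraries (median 65.0), with *Ccr3* the most abundant. None of the 8 basophil or mast cell genes passed the filter, edgeR without a filter passed 0 of 8 with 3 at an unadjusted p under 0.05 (background 8.59%), and their sum was 0 to 4.39 in the WT (median 1.72) and 1.98 to 46.1 in the *Nod2*-/- libraries (median 4.55), with *Mcpt8* the most abundant.

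Of 10 regulators of granulopoiesis, 7 were tested and 1 passed edgeR's 5% FDR, and 2 had an unadjusted p under 0.05, while DESeq2 and voom passed 1 of 7 each. The gene passed by edgeR was *Cebpe*, which encodes C/EBP epsilon, the factor of the secondary granule program. It had 0, 0, 1, 0, 1 and 1 counts across WT replicates 1 to 6, and 154, 213, 251, 92, 173, 144 and 145 across *Nod2*-/- replicates 1 to 7. Every *Nod2*-/- library was far above every WT library (exact permutation p = 0.000583). *Cebpe* rose in *Nod2*-/- mice with a log2 fold change of 8.09 (SE 0.41, edgeR adjusted p = 4.52e-08), and of 8.13 without replicate 7 (edgeR adjusted p = 1.76e-07). Replicate 7 was not its highest library, whereas it was the highest for *Ltf*, *Camp* and *Ngp*. Replicate 3, the highest for *Cebpe*, had 5 *Ltf*, 6 *Camp* and 10 *Ngp* counts. After normalization replicate 3 lay above every WT library for *Camp* and *Ngp*, and within the WT range for *Ltf*. *Cebpe* and *Ctsg* both lie on chromosome 14, on which 4.9% of 469 genes tested passed edgeR's 5% FDR in either direction, against 1.02% of 13076 genes elsewhere. What part *Cebpe* has in the levels of the granule genes was not tested. *Csf3*, the gene of G-CSF, had 0 counts in all 13 libraries, and *Cebpa* was the most abundant of the list, which summed to 4985 to 7112 normalized counts in the WT (median 6237) and 4943 to 7541 in the *Nod2*-/- libraries (median 6468).

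Markers of other blood cells and of dividing cells were counted too, since *Nod2*-/- replicate 7 had the highest sum in 11 of the 16 lists beside the 10 genes. Of 14 erythroid genes, 13 were found and 7 tested, and edgeR passed 0, with 4 at an unadjusted p under 0.05 (background 12.9%), while DESeq2 passed 6 of 9 (background 4.43%) and voom 0 of 7. Their sum was 5170 to 8903 normalized counts in the WT (median 6452) and 6347 to 19387 in the *Nod2*-/- libraries (median 9663), highest in replicate 7 and next in replicate 4 with 15434, and *Hbb-bs* was the most abundant. *Hba-a1* had a log2 fold change of 1.70 (edgeR adjusted p = 0.0803), whereas *Alas2* had -0.39 (edgeR adjusted p = 0.468), and without replicate 7 these were 1.38 and -0.27 (edgeR adjusted p = 0.158 and 0.656). Of 9 megakaryocyte or platelet genes 2 were tested, and edgeR passed 0, with 1 at an unadjusted p under 0.05, while DESeq2 passed 1 of 3 and voom 0 of 2. Their sum was 32.0 to 86.8 in the WT (median 62.3) and 58.5 to 263 in the *Nod2*-/- libraries (median 115), highest in replicate 5, with *Itga2b* the most abundant.

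Of 4 blood progenitor genes 3 were tested, and edgeR passed 0, with 1 at an unadjusted p under 0.05, while DESeq2 passed 1 of 3 and voom 0 of 3. Their sum was 45 to 139 in the WT (median 69.9) and 80.8 to 161 in the *Nod2*-/- libraries (median 124), with *Cd34* the most abundant, and *Kit*, the stem cell factor receptor, had a log2 fold change of 1.02 (edgeR adjusted p = 0.0874), and of 0.97 without replicate 7 (edgeR adjusted p = 0.157). Of 7 B cell precursor genes 1 was tested, *Dntt*, with a log2 fold change of 1.88 (edgeR adjusted p = 0.0624; edgeR passed 0 of 1, DESeq2 1 of 2 and voom 0 of 1, and 1 had an unadjusted p under 0.05 by edgeR). Without replicate 7 the log2 fold change of *Dntt* was 1.96 (edgeR adjusted p = 0.0944). *Dntt* was highest in *Nod2*-/- replicate 4, and it made up most of the list. Of the others, named after their values were seen, *Vpreb1* had 3.23 ± 2.34 normalized counts (SD, n = 6) in WT and 2.75 ± 1.40 (SD, n = 7) in *Nod2*-/- mice, *Vpreb3* had 9.35 ± 5.87 and 5.64 ± 3.55, and *Igll1* had 1 count in each of 2 WT libraries and 0 in every *Nod2*-/- library. The list summed to 14.3 to 61.4 in the WT (median 42.6) and 34.9 to 229 in the *Nod2*-/- libraries (median 94.4), and *Vpreb2*, *Rag1* and *Rag2* had 0 counts in all 13 libraries. Of 5 proliferation genes 4 were tested, and edgeR passed 0, with 3 at an unadjusted p under 0.05, while DESeq2 passed 4 of 5 and voom 1 of 4. Their sum was 34.0 to 209 in the WT (median 84.7) and 125 to 439 in the *Nod2*-/- libraries (median 149), with *Mki67* the most abundant.

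Among the leukocytes and parenchyma of the liver, 5 of 6 monocyte genes were tested, and edgeR passed 0, with 2 at an unadjusted p under 0.05, and DESeq2 passed 0 of 6 and voom 0 of 5. They summed to 388 to 955 in the WT (median 565) and 508 to 1930 in the *Nod2*-/- libraries (median 824), with *Csf1r* the most abundant. All 5 Kupffer cell genes were tested, and edgeR passed 0, with 2 at an unadjusted p under 0.05, and DESeq2 and voom passed 0 of 5 each. They summed to 1544 to 2613 in the WT (median 1747) and 1856 to 5646 in the *Nod2*-/- libraries (median 2503), with *Clec4f* the most abundant. Of 4 B cell genes 1 was tested, and edgeR, DESeq2 and voom passed 0 of 1 each, with 1 at an unadjusted p under 0.05 by edgeR, and the list, led by *Cd79b*, summed to 11.7 to 36.2 in the WT (median 17.3) and 13.7 to 61.7 in the *Nod2*-/- libraries (median 31.6). Of 5 T cell genes 1 was tested, and edgeR and voom passed 0 of 1 and DESeq2 0 of 2, with 0 at an unadjusted p under 0.05 by edgeR, and the list, led by *Cd4*, summed to 42.8 to 87.3 in the WT (median 60.2) and 30.7 to 147 in the *Nod2*-/- libraries (median 69.8). All 6 hepatocyte genes were tested, and edgeR passed 0, with 1 higher and 2 lower at an unadjusted p under 0.05, while DESeq2 placed 2 of 6 lower past 5% FDR and voom 1 of 6. Among all genes, 10.2% were lower at an unadjusted p under 0.05 by edgeR, and 4.09% by DESeq2 and 2.39% by voom were lower past 5% FDR. The hepatocyte sum, led by *Alb*, was 1314010 to 1884290 in the WT (median 1765620) and 1340500 to 2719120 in the *Nod2*-/- libraries (median 1741660), with the highest value in replicate 4, the library with the highest *Prtn3*. Without replicate 7, *Cebpe* was still the only gene of the 16 lists past edgeR's 5% FDR, in a background of 0.209%. The genes higher at an unadjusted p under 0.05 by edgeR, with a background of 10%, were then 2 of 5 other primary, 2 of 5 other secondary and 2 of 6 late or mature neutrophil genes, 1 of 6 regulators, 1 of 5 monocyte and 1 of 5 Kupffer cell genes, while no B cell gene passed the filter. The other lists kept their numbers in this filtered fit, and in the fit without a filter 3 of 7 basophil or mast cell genes were higher at an unadjusted p under 0.05 (background 7%). That fit over all libraries (background 8.59%) had 9 of 13 erythroid, 7 of 9 megakaryocyte or platelet and 5 of 5 proliferation genes higher at that p. Without replicate 7 these were 8 of 13, 4 of 9 and 4 of 5. Other primary and other secondary granule genes had 6 of 10 each, and 2 of 9 and 3 of 10 without it. Monocyte and Kupffer cell genes had 4 of 6 and 3 of 5, and 1 of 6 and 1 of 5 without it. Blood progenitor, B cell precursor and B cell genes had 1 of 4 each in either case, and hepatocyte genes 0 of 6. The permutation test (background 10.5%) placed 5 of 5 proliferation, 4 of 13 erythroid and 2 of 9 megakaryocyte or platelet genes higher at p under 0.05. It placed 2 of 9 other primary, 2 of 10 other secondary, 0 of 6 monocyte and 0 of 5 T cell genes there. Without replicate 7 (background 8.23%) the permutation test placed 3 of 5 proliferation, 2 of 13 erythroid and 2 of 9 megakaryocyte or platelet genes there. For other primary and other secondary granule genes it was then 2 of 9 and 1 of 10, and for monocyte and T cell genes 0 of 6 and 0 of 5. What part any of these cell types has in the levels of the 10 genes was not tested.

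In the annotation of build GRCm38, *Elane* (chr10:79886247-79888215) lies 3072 bases from *Prtn3* (chr10:79874476-79883174), both on the plus strand. *S100a8* (chr3:90668978-90670035, plus strand) and *S100a9* (chr3:90692632-90695721, minus strand) lie 22596 bases apart. *Camp* (chr9:109847379-109849617, minus strand), *Ngp* (chr9:110419747-110423012, plus strand) and *Ltf* (chr9:111019271-111042767, plus strand) follow each other on chromosome 9, with 570129 bases between *Camp* and *Ngp* and 596258 between *Ngp* and *Ltf*. *Mmp8* (chr9:7558456-7568485, plus strand) lies on the same chromosome, *Mpo* at chr11:87793581-87804413 on the plus strand and *Ctsg* at chr14:56099881-56102574 on the minus strand. The neighbours *Prtn3* and *Elane* had 1226 and 5 counts in *Nod2*-/- replicate 4.

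RefSeq promoters of build GRCm38.p6, from 250 bases before to 50 after the start of each gene, were matched for all 10 genes. They were searched on both strands for TTNNGNAA, a pattern of C/EBP factors, and for GAGGAA, the core pattern of PU.1, both regulators of granule genes. TTNNGNAA occurred in 5 of the 10 promoters (*Ltf*, *Ngp*, *Mmp8*, *S100a8* and *S100a9*) and in 40.7% of 32851 promoters of the same length. It was found in none of the 4 primary granule promoters nor in that of *Camp*, which says only that these letters are not in this window. GAGGAA occurred in 7 of the 10 (*Mpo*, *Elane*, *Prtn3*, *Ctsg*, *Ltf*, *Mmp8* and *S100a8*) and in 28.3% of all promoters. A match is a description of the sequence and not a binding site. The promoters of 2 neighbouring primary, 2 secondary and both S100 genes are shown because their counts moved together or, for *Prtn3* and *Elane*, came apart in replicate 4. Capitals mark matches to either pattern on either strand. The positions are chr10:79879417-79879716 (plus strand) for *Prtn3*, chr10:79886062-79886361 (plus strand) for *Elane*, chr9:111019042-111019341 (plus strand) for *Ltf*, chr9:110419558-110419857 (plus strand) for *Ngp*, chr3:90668821-90669120 (plus strand) for *S100a8* and chr3:90695672-90695971 (minus strand) for *S100a9*. The window of *Prtn3* lies inside its annotated gene, which starts further upstream in the annotation used here.
Prtn3: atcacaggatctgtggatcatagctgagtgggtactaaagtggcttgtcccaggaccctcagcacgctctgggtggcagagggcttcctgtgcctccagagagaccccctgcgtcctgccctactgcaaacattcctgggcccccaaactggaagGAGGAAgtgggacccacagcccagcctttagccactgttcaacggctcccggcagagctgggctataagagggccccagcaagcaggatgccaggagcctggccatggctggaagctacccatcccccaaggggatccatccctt
Elane: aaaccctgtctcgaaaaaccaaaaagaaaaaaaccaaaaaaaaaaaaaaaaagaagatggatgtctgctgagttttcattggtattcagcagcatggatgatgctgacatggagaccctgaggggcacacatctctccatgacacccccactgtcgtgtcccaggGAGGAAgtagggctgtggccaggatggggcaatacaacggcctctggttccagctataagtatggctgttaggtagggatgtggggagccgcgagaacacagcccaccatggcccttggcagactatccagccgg
Ltf: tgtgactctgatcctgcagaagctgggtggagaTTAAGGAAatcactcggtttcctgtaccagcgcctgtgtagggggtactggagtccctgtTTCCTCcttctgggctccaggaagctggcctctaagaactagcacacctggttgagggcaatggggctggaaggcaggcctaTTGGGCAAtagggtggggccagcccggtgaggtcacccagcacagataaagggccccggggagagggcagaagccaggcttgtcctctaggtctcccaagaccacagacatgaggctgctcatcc
Ngp: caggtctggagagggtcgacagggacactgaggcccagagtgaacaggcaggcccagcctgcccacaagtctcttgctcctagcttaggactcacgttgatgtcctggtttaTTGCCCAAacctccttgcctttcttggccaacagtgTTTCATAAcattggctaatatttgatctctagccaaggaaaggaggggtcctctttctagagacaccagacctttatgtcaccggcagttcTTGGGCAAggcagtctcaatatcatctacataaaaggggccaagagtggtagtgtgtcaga
S100a8: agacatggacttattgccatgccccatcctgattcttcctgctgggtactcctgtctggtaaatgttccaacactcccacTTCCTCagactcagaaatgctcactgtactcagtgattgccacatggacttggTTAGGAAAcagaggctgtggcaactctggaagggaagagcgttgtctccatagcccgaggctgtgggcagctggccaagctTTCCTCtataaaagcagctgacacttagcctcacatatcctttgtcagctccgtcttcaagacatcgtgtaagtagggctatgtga
S100a9: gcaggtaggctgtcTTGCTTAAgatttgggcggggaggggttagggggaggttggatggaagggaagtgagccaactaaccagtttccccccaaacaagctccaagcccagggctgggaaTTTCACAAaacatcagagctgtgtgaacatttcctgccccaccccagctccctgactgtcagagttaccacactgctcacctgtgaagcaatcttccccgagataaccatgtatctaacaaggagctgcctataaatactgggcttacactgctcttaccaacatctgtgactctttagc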

How the data were processed

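The authors deposited raw counts per gene for the livers of 13 mice, made from reads trimmed with Trimmomatic 0.33 and aligned with TopHat2 2.1.1. The counting program and its use of strand are not given in the sources used here. A line without a gene was left out. The 10 genes and all lists were chosen with earlier results of these data known. Genotypes were compared with edgeR 4.0.16 in R 4.3.3 (TMM, expression filter, quasi-likelihood test), and alternatives used DESeq2 1.42.0 and limma 3.58.1. DESeq2 without replacement, list counts without replicate 7, *Prtn3* ratios and summed shares without replicate 4, and leaving mice out without a filter were added after seeing the data. Exact permutation tests used genes with at least 10 counts (scipy 1.17.1, numpy 2.4.6). Genes of the other lists were named when past 5% FDR, or by counts and lowest p, beside the 5 genes most like each of *Prtn3*, *Ltf* and *S100a8*. Scripts were tested on simulated data. Among 36 library pairs within genotypes, chi-square per degree of freedom was 11.6 to 177, and none was counted as a duplicate. Intervals and floors cover counting error only.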

Additional observations from a re-analysis of the deposited data

Results flagged for a closer look

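A gap rule compared the distance between the most extreme library and its nearest neighbour with the range of its group, on log2(normalized count + 1), for the 10 genes in each genotype. It picked 5 of the 20 gene and genotype groups, where the rule nominally picks about 1 in 20 by chance. The share it would pick over all genes was not computed, so no background stands beside these 5 groups. In each the library was *Nod2*-/- replicate 7, and the ratio of gap to range was 0.588 for *Mpo*, 0.582 for *Ctsg*, 0.636 for *Mmp8*, 0.619 for *S100a8* and 0.613 for *S100a9*. The 5 values come from the same mouse and are not separate events.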

How the results depend on the processing

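Most results kept their direction and their side of the threshold. Of the edgeR fold changes of *Prtn3*, *S100a8* and *S100a9*, 53 were unchanged in call and 9 crossed 5% FDR. *Prtn3* crossed it without a filter (log2 fold change 4.95), with DESeq2 with or without replacement of counts (5.05), and with single mice left out (4.87 without WT replicate 3 to 5.19 without *Nod2*-/- replicate 2, in a range over all mice of 4.15 without *Nod2*-/- replicate 4 to 5.87 without WT replicate 6). *S100a8* and *S100a9* crossed it with DESeq2 (1.90 and 1.82). The number of the 10 genes past 5% FDR was 1 without a filter, 4 with DESeq2, 1 with DESeq2 without replacement, and 0 to 1 with a mouse left out of the filtered fit, which tested 3 or 4 of them. In the fit without a filter, which tested all 10, it was 0 to 6 with a mouse left out, 6 being reached without WT replicate 3, *Nod2*-/- replicate 1 or *Nod2*-/- replicate 3. The number of all genes higher in *Nod2*-/- mice was 630 with DESeq2, 625 without replacement, 519 with voom, and 20 without WT replicate 4 to 697 without WT replicate 3. The cause was not tested.

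With replicate number as a factor (replicate block, *Nod2*-/- replicate 7 left out), 15 genes were higher and 17 lower, and 0 of the 3 granule and S100 genes tested passed. The number is no pairing in the design: correlations of same-numbered mice were -0.30 to 0.30, and 0 were each other's best partner.

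In the exact permutation test, counts without a logarithm left 0 of the 10 genes under 0.05, with mean differences of 68.7 (*Mpo*), 30.5 (*Elane*), 325 (*Prtn3*), 29.6 (*Ctsg*), 65.3 (*Camp*), 195 (*Ngp*), 725 (*S100a8*) and 1146 (*S100a9*) normalized counts. A pseudocount of 5 took *Elane* (1.22) and *Ctsg* (1.22) over 0.05. With each of 13 mice left out in turn, p under 0.05 was lost in 9 cases for *Elane* (differences 1.18 to 1.99) and in 11 for *Ctsg* (1.43 to 2.53), and gained in 1 for *Ltf* (3.02) and in 2 for *Mmp8* (1.84 to 1.94), in ranges over all mice of 1.18 to 2.18, 1.43 to 2.70, 1.38 to 3.02 and 0.83 to 1.94.

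The primary granule share left the 95% interval of its library in 26 values and stayed within it in 13, and these intervals are wide where counts are few. Without *Prtn3* it was 0%, 24.1%, 50%, 16.7% and 31.8% in WT replicates 2 to 6, of only 1, 29, 10, 6 and 22 counts. In *Nod2*-/- replicates 1 to 7 it was 30.8%, 40%, 31.6%, 23.5%, 25.8%, 40.6% and 22.5%. With *S100a8* and *S100a9* added to the total it was 7.55%, 4.76%, 17.0%, 17.6%, 8.77% and 28.0% in the WT and 25%, 12.2%, 30.9%, 81.8%, 16.5%, 27.0% and 9.97% in the *Nod2*-/- libraries. Per kilobase of exon it was 34.0% in *Nod2*-/- replicate 7.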
